A study of Mus musculus with 4 samples.

Results

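The S100 calcium-binding proteins are small EF-hand proteins that work mostly as dimers. The 10 genes described here (S100a1, S100a4, S100a6, S100a8, S100a9, S100a10, S100a11, S100a13, S100a14 and S100a16) were taken by symbol from a deposited table of 52125 gene rows, and all 10 were found. The libraries come from the stomach corpus, the gland-bearing body of the stomach, of wild-type C57BL/6 mice aged 6 to 8 weeks, with 1 mouse in each library. The vehicle group had 2 mice sampled at 48 hr, and the protocols call the controls untreated. The HDT group had 2 mice sampled 48 hr after a single intraperitoneal injection of HDT at 5 mg per 20 g of body weight, given to damage the stomach. In gastric injury work HDT stands for high-dose tamoxifen, a step that the labels do not spell out. The series concerns Iqgap3 and Ras in corpus stem cells, and all 4 mice were wild type according to the labels.

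As background, most S100 proteins bind calcium, change shape and then dock onto a target protein. S100a10 and S100a11 pair with annexins at membranes, S100a6 binds annexins and the ubiquitin ligase adaptor Cacybp, and S100a4 binds non-muscle myosin. S100a8 and S100a9 form calprotectin, a zinc- and manganese-binding complex that neutrophils carry in bulk and release as an alarm signal through Toll-like receptor 4 and the receptor for advanced glycation end products.

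At 48 hr after HDT, S100a11 and S100a6 were higher than in vehicle, and S100a9 and S100a1 were lower. S100a11 rose 1.85-fold and S100a6 1.38-fold in mean CPM, a gene's reads scaled to the library's TMM-adjusted read total. S100a1 fell by 34.3% and S100a9 fell by 84.4%. The other 5 tested members were not called, and S100a8 had too few reads to be tested. Of 9 tested members 4 were called by limma at an adjusted p under 0.05, against 37.7% of all 18285 tested genes. In the direction of rise there were 2 members, against 18.4% of tested genes called higher, and in the direction of fall 2, against 19.3% called lower. The groups did not overlap for 5 of the 9, against 70.8% of all tested genes. The median log2 fold change was −0.12 over the 9 tested members and −0.0015 over every gene tested. S100a9 passed the low-count filter only through vehicle. Of the 8 members that passed in both groups 3 were called, against 39.1% of the 16952 genes that did so. These shares lie near those of the whole transcriptome, so the family as a list was not set apart by its counts.

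Direction depends on the scaling for the modest changes. The TMM factors were 0.848 and 0.818 in vehicle and 1.22 and 1.18 in HDT, and at the scaling the authors deposited, the median over all genes moves to 0.53. All other values here are relative to the TMM median. At the deposited scaling S100a11 (log2 fold change 1.41), S100a6 (0.99) and S100a9 (−2.03) kept their direction and their call, while S100a1 was at −0.08 (limma adjusted p = 0.372). There 4 members were called higher, against 62.8% of all tested genes, and 1 lower, against 5.46%. The 2 added rises were those of S100a16 (0.53, limma adjusted p = 0.00281) and S100a13 (0.42, limma adjusted p = 0.0179). That of S100a16 was about level with the shift of all genes, and that of S100a13 was below it.

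**Figure D1:**
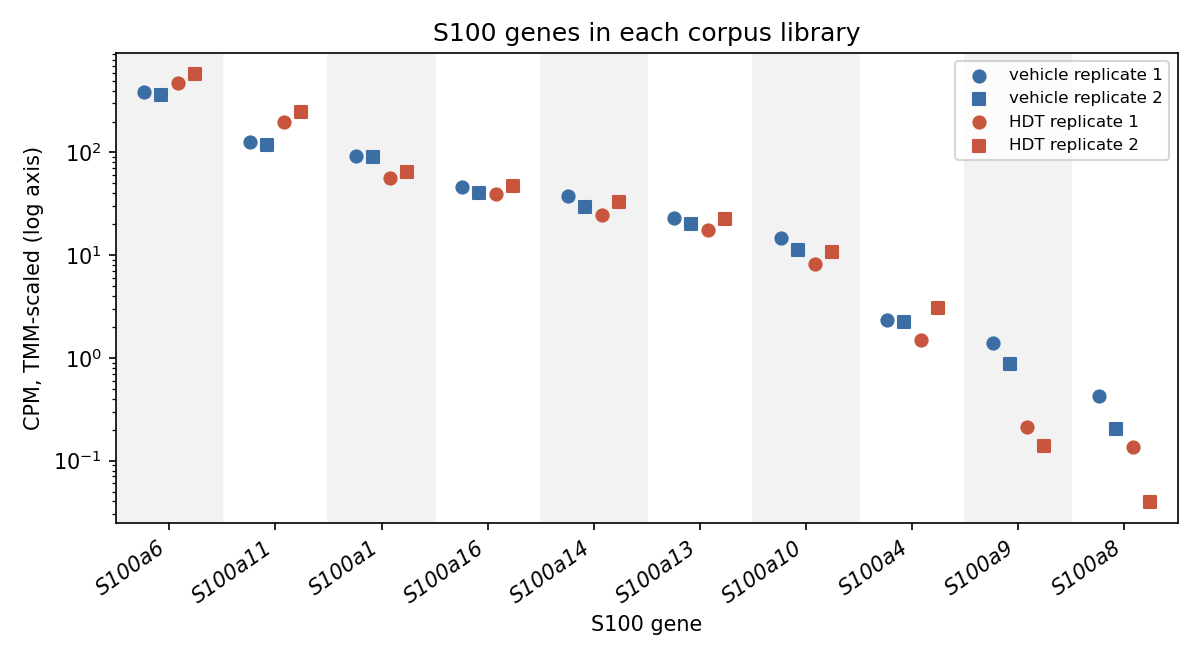
TMM-scaled CPM (log axis) of the 10 S100 genes, 1 point per library, with vehicle in blue, HDT in red, circles for replicate 1 and squares for replicate 2. Both HDT points lie above both vehicle points for S100a6 and S100a11 and below them for S100a1, S100a9, S100a8 and S100a10.

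S100a11, an annexin A1 and A2 partner linked to membrane repair and to keratinocyte growth control, lies on chromosome 3 at 93520488 to 93526287 on the plus strand (GRCm38, GENCODE M21, protein-coding, 3 exons). It was at 125 and 118 CPM in vehicle replicates 1 and 2, and at 199 and 249.8 CPM in HDT replicates 1 and 2. The vehicle mice lay close together and both HDT mice lay well above them, with the larger spread in HDT. The group means were 121 ± 5.47 and 224 ± 36.0 CPM (SD, n = 2), a log2 fold change of 0.88 (SE 0.109, limma adjusted p = 0.00111). The rise was called under all 15 alternative settings, between 0.73 and 1.41. It rests on 4048 to 12608 reads per library, so counting error is small beside the spread between mice.

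S100a6, or calcyclin, a gene named for its link to the cell cycle and active in many proliferating and epithelial cells, lies on chromosome 3 at 90612882 to 90624181. It was the most abundant member in reads, at 389.5 and 366 CPM in vehicle and 469.9 and 576 CPM in HDT. Both HDT mice were above both vehicle mice. The gap between the nearest mice of the 2 groups was smaller than the gap between the 2 HDT mice. The means were 378 ± 16.3 and 523 ± 74.9 CPM (SD, n = 2), with a log2 fold change of 0.46 (SE 0.0996, limma adjusted p = 0.00916). It was called under all 15 alternatives, from 0.33 to 0.99.

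S100a10, also called p11, has inactive calcium sites and forms a tetramer with annexin A2. It was at 14.7 and 11.4 CPM in vehicle and 8.13 and 10.9 CPM in HDT. Both HDT mice were below both vehicle mice, but the higher HDT mouse came close to the lower vehicle mouse. The log2 fold change was −0.46 with a 95% interval of −0.89 to −0.03 before adjustment, and the limma adjusted p was 0.0897. It was called lower without vehicle replicate 2 (−0.65, limma adjusted p = 0.0165) and without HDT replicate 2 (−0.65, limma adjusted p = 0.0318), and at the deposited scaling it was at 0.07 (limma adjusted p = 0.739). S100a10 lies only 28.8 kb from S100a11 on the same strand of chromosome 3, at 93555080 to 93564643.

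S100a1, best known as an activator of calcium cycling in heart and skeletal muscle, was the third most abundant member in reads. It was at 93.2 and 91.0 CPM in vehicle and at 56.6 and 64.4 CPM in HDT. The groups were well apart and both pairs were tight. The means were 92.1 ± 1.56 and 60.5 ± 5.47 CPM (SD, n = 2), with a log2 fold change of −0.61 (SE 0.0750, limma adjusted p = 0.000531). The fall was called in 14 of 15 alternatives, the deposited scaling being the exception. In recovered reads alone S100a1 was nearly level, with 3282 and 3135 reads in vehicle and 2913 and 3249 in HDT. Read totals were nearly equal in the libraries, so the fall is one relative to the TMM median and not relative to all reads. Which cells hold S100a1 cannot be read from these libraries, and in bulk tissue fewer cells of a type and less RNA per cell cannot be told apart. All 8 parietal cell marker genes and 4 chief cell genes were tested beside it. Of these 6 and 3 were lower, against 19.3% of all tested genes. The part of parietal and chief cells in the result was not tested.

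S100a13, which takes part in the unconventional export of Fgf1 and interleukin 1 alpha, starts 42 bases from S100a1 in the opposite direction. It was at 23.2 and 20.0 CPM in vehicle and 17.8 and 22.3 CPM in HDT, with overlapping groups and a log2 fold change of −0.12 (95% interval −0.41 to 0.18, limma adjusted p = 0.509). The sign of this value turned at the deposited scaling. Of its export cargoes, Fgf1 fell by 1.06 on the log2 scale (limma adjusted p = 0.000345), from 17.0 and 13.8 CPM to 7.41 and 7.27 CPM, and Il1a, at 0.62 and 0.61 CPM in vehicle and 0.86 and 0.87 CPM in HDT, was not called (limma adjusted p = 0.195).

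The epithelial members S100a14 and S100a16 were not called. S100a14 was at 37.4 and 29.8 CPM in vehicle and 24.9 and 33.2 CPM in HDT, with a log2 fold change of −0.22 (95% interval −0.67 to 0.24, limma adjusted p = 0.397). S100a16 was at 46.1 and 40.6 CPM in vehicle and 39.2 and 47.7 CPM in HDT, with a log2 fold change of −0.0015 (95% interval −0.26 to 0.25, limma adjusted p = 0.993). For both genes the groups overlapped. The interval of S100a14 still allows a fall as large as that of S100a1, and that of S100a16 does not. Their signs turned at the deposited scaling, at 0.32 and 0.53.

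S100a4, also named fibroblast-specific protein, is found in fibroblasts, macrophages and motile cells. It was at 2.33 and 2.24 CPM in vehicle and at 1.50 and 3.05 CPM in HDT. The HDT mice lay on either side of the vehicle mice, and the log2 fold change of −0.09 had a 95% interval of −0.88 to 0.69 (limma adjusted p = 0.849). Without HDT replicate 1 the value was 0.42 (limma adjusted p = 0.172) and without HDT replicate 2 it was −0.58, so 1 library sets its sign. In the annotation 51.7% of its exon bases are shared with Gm42674 on the same strand, whose reads (84, 74, 85 and 159 in vehicle replicates 1 and 2 and HDT replicates 1 and 2) moved alongside those of S100a4 (82, 77, 77 and 154). How reads in the shared bases were counted is not known, so the level of S100a4 is uncertain. Among 12 tested fibroblast and matrix genes 11 were higher and 0 lower, with summed levels of 1377 to 1386 CPM in vehicle and 2544 to 2812 CPM in HDT. The macrophage and monocyte list had 10 of 14 higher and 0 lower, at 226 to 238 CPM in vehicle and 409.5 to 485 CPM in HDT. Both counts are to be read beside the 18.4% of all tested genes called higher and the 19.3% called lower.

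The calprotectin genes were the scarcest members. S100a9 had 49 and 30 reads in vehicle replicates 1 and 2 and 11 and 7 reads in HDT replicates 1 and 2, or 1.39, 0.871, 0.214 and 0.139 CPM. Both HDT mice lay below both vehicle mice by a wide margin. The log2 fold change was −2.54 (SE 0.387, limma adjusted p = 0.00152), and it was called in all 14 alternatives in which it was tested, between −2.88 and −2.03. The filter of 1 CPM left S100a9 out. S100a9 passed the low-count filter only through the vehicle libraries, where it is high, so a gene as low in both groups would not have been tested. S100a8 had 15 and 7 reads in vehicle and 7 and 2 in HDT, which is under the low-count filter. Over the pooled reads its HDT level was 0.28 of the vehicle level, with an exact 95% interval of 0.113 to 0.632 that covers counting error only. With no low-count filter its log2 fold change was −1.69 (limma adjusted p = 0.0571). S100a9 reads outnumbered S100a8 reads by 1.57 to 4.29 in the 4 libraries, and the groups overlapped in this ratio.

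Markers of neutrophils, the main known source of calprotectin, did not move in a single direction. Of 15 listed genes 8 could be tested, of which 3 rose, 1 fell and 4 gained no call, with a median log2 fold change of 0.77. Of all tested genes 18.4% were called higher and 19.3% lower. Over the 6 neutrophil genes that passed the low-count filter in both groups, 1 rose and 1 fell, with a median of 0.15. Lactotransferrin (Ltf), the collagenase Mmp8 and the lectin receptor Clec4d were higher, by 2.19, 2.52 and 1.65 on the log2 scale (limma adjusted p = 0.0014, 0.0209 and 0.00348; Ltf and Mmp8 passed the low-count filter only through HDT), and Il1b fell by 1.08, from 2.47 and 1.60 CPM to 0.97 and 0.89 CPM (limma adjusted p = 0.0131). Elane had 0 reads in all libraries. In vehicle replicates 1 and 2 Ngp had 4 and 5 reads, Camp 2 and 1, and Ly6g 3 and 0, each with 0 reads in both HDT libraries. Mpo had 1 read in HDT replicate 1 and 0 in every other library. Cxcr1 had 3 and 2 reads in vehicle and 1 and 1 in HDT, and Cxcr2 5 and 3 against 4 and 3. These genes were too scarce to be tested. The summed level of the list was 32.7 to 33.6 CPM in vehicle and 27.9 to 48.6 CPM in HDT, most of it from Hdc, which endocrine cells of the corpus also express. Without HDT replicate 2 the list had 5 higher and 0 lower, without HDT replicate 1 it had 2 higher and 2 lower, and without vehicle replicate 1 it had 0 lower. The part of neutrophils in the fall of S100a9 was not tested. Squamous epithelium of the neighbouring forestomach can also make both subunits. Its 14 markers summed to 3.98 to 4.35 CPM in vehicle and 4.9 to 5.63 CPM in HDT. Of 8 tested genes 1 (Ivl) was higher and 0 were lower, but Ivl passed the low-count filter only through HDT. Of the 3 that passed in both groups 0 were called by limma. Krtdap had 0 reads, and Trp63, Dsg3, Sprr1b and Sprr3 had 0 reads in at least 1 library.

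**Figure D2:**
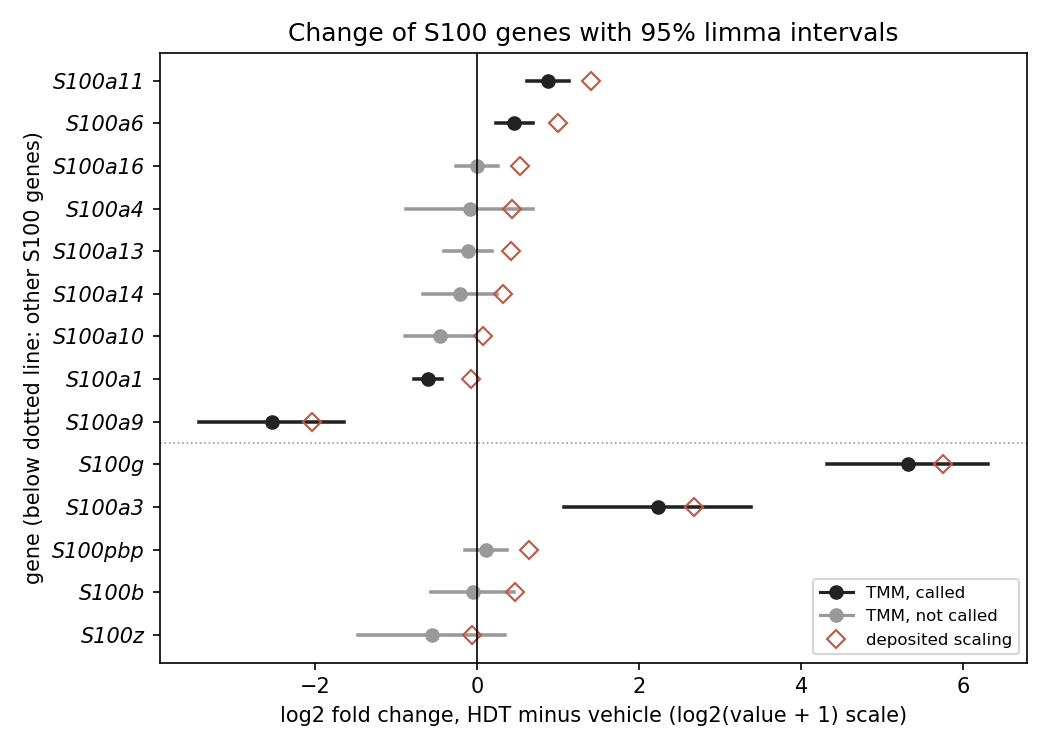
Log2 fold change of HDT minus vehicle for the 9 tested members and, under the dotted line, the other tested S100 genes. Bars are 95% limma intervals before adjustment, black marks a call, grey no call, and open diamonds give the value at the deposited scaling, which lies to the right of the TMM value for every gene shown.

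Levels of different genes can be compared only per length. In CPM per kb of all annotated exons, vehicle levels fell in the order S100a6 (277 ± 11.9), S100a11 (238 ± 10.7), S100a1 (133 ± 2.24), S100a13 (30.2 ± 3.19), S100a16 (26.8 ± 2.41), S100a14 (19.4 ± 3.13), S100a10 (10.7 ± 1.94), S100a4 (3.91 ± 0.113), S100a9 (2.17 ± 0.705) and S100a8 (0.453 ± 0.227) (SD, n = 2). On this length S100a13 and S100a16 did not differ beyond their spread, since the vehicle values of S100a13 were 32.5 and 27.9 and those of S100a16 28.5 and 25.1. In HDT S100a11 (439 ± 70.5) stood before S100a6 (382 ± 54.8), with overlapping values, and the order of the rest was kept. The order depends on the length used. With the length of the principal transcript, 464 bases for S100a6 and 511 for S100a11, S100a6 was first in both groups, at 815 ± 35.1 and 1127 ± 161 CPM per kb. S100a16 (71.3 ± 6.41) and S100a14 (69.5 ± 11.2) then stood well above S100a13 (30.2 ± 3.19) in vehicle, and S100a13 and S100a10 (27.3 ± 4.94) did not differ beyond their spread.

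The make-up of the family's reads is free of any scaling between libraries. Of all reads of the 10 genes, S100a6 took 53.1% and 53.9% in vehicle and 57.5% and 57.2% in HDT, and S100a11 took 17.1% and 17.3% in vehicle and 24.3% and 24.8% in HDT. S100a1 went from 12.7% and 13.4% to 6.93% and 6.39%. Together S100a6 and S100a11 made up 70.7 ± 0.706% of the family's reads in vehicle and 81.9 ± 0.102% in HDT (SD, n = 2). The summed level of the 10 genes was 734 and 680.0 CPM in vehicle and 817 and 1007 CPM in HDT.

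**Figure D3:**
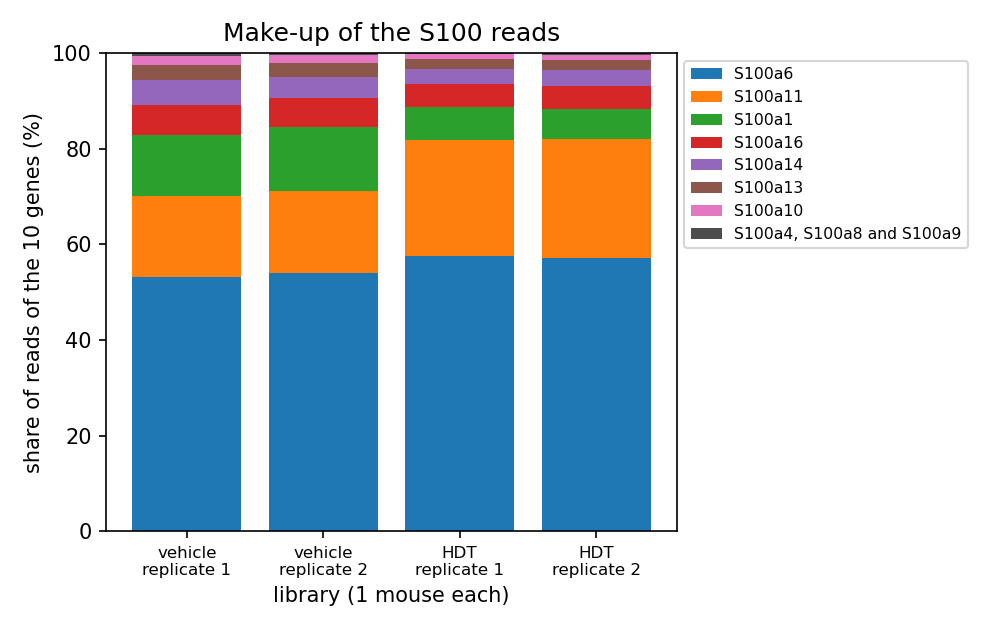
Share of all reads of the 10 S100 genes (%) taken by each gene, 1 bar per library. S100a6 and S100a11 together fill 70.2% and 71.2% of the vehicle bars and 81.8% and 82.0% of the HDT bars, and S100a1 takes a smaller share in both HDT bars.

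Read ratios within a library show unequal change of 2 genes whatever the scaling. With 2 mice against 2, a two-sided exact permutation test cannot give a p below 0.333, so these ratios are descriptions. S100a11 had 8.53 and 10.4 reads for each read of its neighbour S100a10 in vehicle and 24.5 and 23.0 in HDT. S100a6 had 26.5 and 32.3 reads for each read of S100a10 in vehicle and 57.8 and 53.0 in HDT. S100a11 gained on S100a6 too, with S100a6 to S100a11 ratios of 3.11 and 3.12 in vehicle and 2.36 and 2.31 in HDT. The divergent pair S100a1 and S100a13 parted, with ratios of 4.02 and 4.56 in vehicle and 3.19 and 2.89 in HDT. The groups did not overlap in these 4 ratios. Of 15 pairs computed, all chosen after values were seen, 13 had groups that did not overlap, to be read beside the 70.8% of single genes, and S100a9 to S100a8 and Anxa2 to Anxa6 overlapped.

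**Figure D4:**
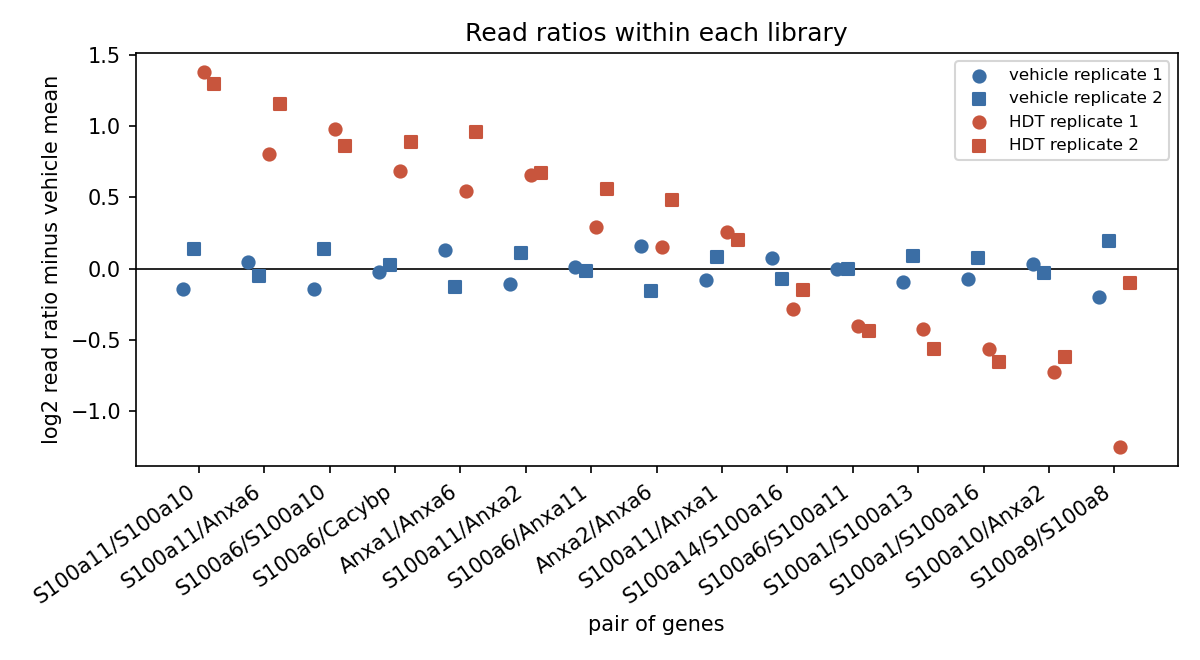
Log2 ratio of reads of 2 genes in the same library, after subtracting the vehicle mean of that ratio, with vehicle in blue and HDT in red. The groups overlap in 2 of the 15 pairs shown, Anxa2 to Anxa6 and S100a9 to S100a8, and the HDT points run from 1.34 above (S100a11 to S100a10) to −0.67 (S100a10 to Anxa2 and S100a9 to S100a8) on average against the vehicle mean.

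The target proteins of the S100 family moved both ways. Of 22 tested intracellular partners 6 rose, 5 fell and 11 had no call, or 50% called against 37.7% of all genes, with a median log2 fold change of 0.0012. Without vehicle replicate 2 the higher partners numbered 3, without vehicle replicate 1 the lower ones numbered 3, and at the deposited scaling 17 were higher and 2 lower. Annexin A1 (Anxa1), a partner of S100a11, went from 33.1 and 27.7 CPM to 41.5 and 54.3 CPM, a log2 fold change of 0.65 (limma adjusted p = 0.0208), and the call was lost when vehicle replicate 2 was left out (0.52, limma adjusted p = 0.0801). Annexin A2 (Anxa2), the partner of S100a10, was at 139.8 and 113 CPM in vehicle and 131 and 162 CPM in HDT, with overlapping groups (log2 fold change 0.21, limma adjusted p = 0.302). Annexin A6 (Anxa6) was at 62.0 and 62.2 CPM in vehicle and 58.2 and 57.4 CPM in HDT (−0.10, limma adjusted p = 0.207), and the giant scaffold Ahnak, which binds the S100a10 and annexin A2 complex, was at 258 ± 16.6 and 253 ± 36.5 CPM (−0.04, limma adjusted p = 0.814). Cacybp, the S100a6 target, fell by 0.33 on the log2 scale, from 75.3 and 68.4 CPM to 55.6 and 58.95 CPM (limma adjusted p = 0.00874), but lost its call when vehicle replicate 1 was left out (−0.26, limma adjusted p = 0.064) and was at 0.21 at the deposited scaling (limma adjusted p = 0.0368).

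The most changed partners were the potassium channel Kcnk3, whose traffic to the membrane S100a10 is known to affect, and Cyba, the small subunit of the phagocyte NADPH oxidase, to which calprotectin delivers arachidonic acid. Kcnk3 fell from 53.9 and 56.0 CPM to 10.4 and 10.8 CPM, a log2 fold change of −2.37 (limma adjusted p = 8.57e-07). Cyba rose from 24.9 and 21.1 CPM to 39.8 and 47.6 CPM, by 0.93 on the log2 scale (limma adjusted p = 0.000733). Both calls held in all alternatives run.

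Per read, S100a10 lost ground to its partner and S100a11 gained on its own. There were 0.105 and 0.101 S100a10 reads for each Anxa2 read in vehicle and 0.0622 and 0.067 in HDT. There were 3.79 and 4.24 S100a11 reads for each Anxa1 read in vehicle and 4.80 and 4.60 in HDT, and 5.18 and 5.36 S100a6 reads for each Cacybp read in vehicle and 8.45 and 9.77 in HDT. In these 3 the groups did not overlap, while Anxa2 to Anxa6, at 2.25 and 1.81 in vehicle and 2.24 and 2.83 in HDT, did.

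**Figure D5:**
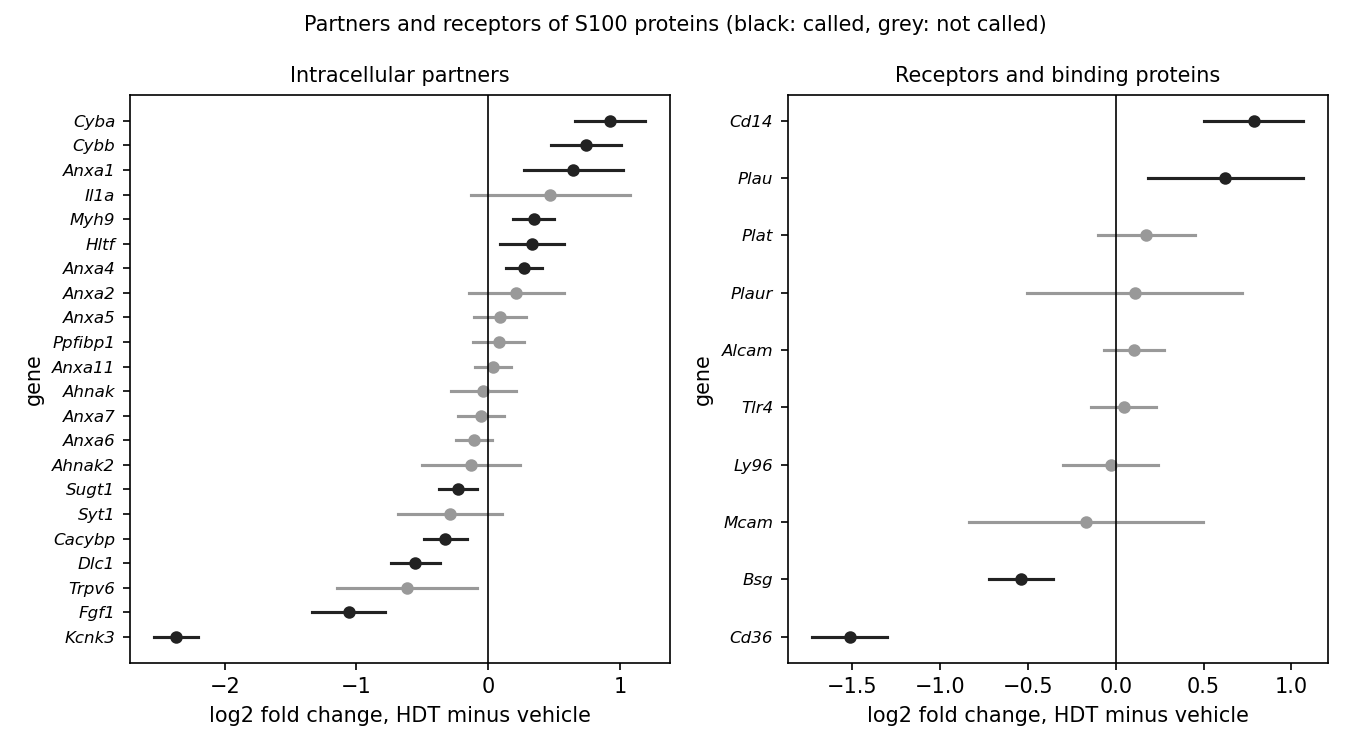
Log2 fold change of HDT minus vehicle with 95% limma intervals before adjustment for 22 tested intracellular partners (left) and 10 tested receptors and binding proteins (right). Kcnk3 and Cd36 lie farthest to the left at −2.37 and −1.51, and Cyba and Cd14 farthest to the right at 0.93 and 0.78.

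Receptors of released S100 proteins were split as well. Of 13 receptors and extracellular binding proteins 10 were tested, and 2 rose, 2 fell and 6 had no call, with a median log2 fold change of 0.07. That is 40% called, near the 37.7% of all tested genes, so the list was not set apart by its counts. Toll-like receptor 4 (Tlr4), the calprotectin receptor, was at 46.0 and 43.3 CPM in vehicle and 43.2 and 49.0 CPM in HDT (log2 fold change 0.04, 95% interval −0.14 to 0.23, limma adjusted p = 0.692). The receptor for advanced glycation end products (Ager) had 2 reads in each vehicle library and 7 and 11 in HDT, under the filter. The Tlr4 co-receptor Cd14 rose from 4.15 and 4.50 CPM to 7.51 and 7.41 CPM, by 0.78 (limma adjusted p = 0.00164), and the scavenger receptor Cd36, which takes up fatty acids that calprotectin can carry, fell from 121 and 141 CPM to 48.5 and 43.2 CPM, a log2 fold change of −1.51 (limma adjusted p = 2.09e-05). Without vehicle replicate 2 or without HDT replicate 2, and with the replicate block, the higher genes numbered 1, and at the deposited scaling 6 were higher and 1 lower.

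Other EF-hand calcium sensors outside the family were mostly without a call. Of 12 tested, 1 was higher, 2 were lower and 9 were not called, with a median of −0.14. That is 25% called against 37.7% of all tested genes. Tescalcin (Tesc) fell from 139.5 and 145 CPM to 90.3 and 90.6 CPM, a log2 fold change of −0.65 (limma adjusted p = 0.000116), which was −0.12 at the deposited scaling (limma adjusted p = 0.101). The calmodulin gene Calm3 was at 169 and 168 CPM in vehicle and 189 and 198 CPM in HDT (0.20, limma adjusted p = 0.0339). The call was lost with either vehicle mouse left out (0.20 and 0.19, limma adjusted p = 0.211 and 0.229), where 0 genes of the list were higher, without HDT replicate 2 (0.18, limma adjusted p = 0.0549) and with the replicate block (0.20, limma adjusted p = 0.113). At the deposited scaling 8 were higher and 0 lower.

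Among S100 genes outside the 10, the largest change was that of S100g, calbindin D9k, a vitamin D-dependent calcium buffer of the gut and an oestrogen-responsive gene of the uterus, on chromosome X at 162961992 to 162964599. It had 1 and 3 reads in vehicle and 147 and 146 reads in HDT, or 0.0284 and 0.0871 CPM against 2.86 and 2.89 CPM. The pooled ratio was 50.1, with an exact 95% counting interval of 19.3 to 185, and the log2 fold change was 5.31 (limma adjusted p = 6.96e-05). It was called in all alternatives run. S100a3, which lies between S100a16 and S100a4, had 4 and 2 reads in vehicle and 29 and 19 in HDT (log2 fold change 2.23, limma adjusted p = 0.00982). Leaving out HDT replicate 1 (1.94, limma adjusted p = 0.142) or leaving out HDT replicate 2 (2.51, limma adjusted p = 0.0599) ended this call and left 1 higher gene in the list. Of the 15 listed other family genes, fused-type members included, 5 were tested. The 2 called genes, S100g and S100a3, passed the low-count filter only through the HDT libraries, where they are high. A gene as low in both groups as these were in vehicle would not have been tested. Of the 3 listed genes that passed in both groups 0 were called by limma, against 39.1% of all genes that did so. S100b, a glial member, had 55 and 43 reads in vehicle and 65 and 72 in HDT (−0.06, limma adjusted p = 0.866). The fused-type genes Flg, Flg2, Hrnr, Tchhl1 and Crnn, which belong to squamous epithelium, had 0 reads in every library. S100a2, which no list held, had 7 and 6 reads in vehicle and 8 and 3 in HDT.

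All 10 members lie on chromosome 3, in 2 groups at the ends of the epidermal differentiation complex. From S100a1 to S100a9, 8 members fall within 185 kb (90511034 to 90695721), and S100a11 and S100a10 follow after a gap of 2.82 Mb. Neighbours had different calls. S100a1 was lower and S100a13 beside it had no call, S100a6 was higher and S100a9 lower within the same stretch, and S100a11 was higher while S100a10 beside it had no call. In the whole interval of 3.05 Mb the table holds 119 genes, of which 24 were tested, 5 higher and 5 lower. These counts lie near the shares of all tested genes, 18.4% higher and 19.3% lower. S100a3 and Ivl among the higher genes and S100a9 among the lower passed the low-count filter through 1 group only. Of the 14 tested genes of the interval that are not S100 genes, 2 were higher and 3 lower. Involucrin (Ivl), an envelope protein of squamous cells, had 1 read in each vehicle library and 39 and 44 in HDT, a pooled ratio of 28.4 (exact 95% counting interval 7.61 to 238) with a log2 fold change of 4.07 (limma adjusted p = 0.00035). It too passed the filter only through HDT. Sprr2a1 fell by 0.40, from 264 and 205 CPM to 169 and 185 CPM (limma adjusted p = 0.047). It has near-identical copies beside it, so its reads are uncertain. It was at 0.13 at the deposited scaling. In the list of 14 complex genes that are not S100 genes, 5 were tested, 2 were higher and 1, Sprr2a1, was lower. The call of Sprr2a1 was lost in 8 of 15 alternatives, among them each scaling but that of DESeq2, no low-count filter, the replicate block and leaving out vehicle replicate 1 or either HDT mouse (limma adjusted p = 0.165, 0.398 and 0.25).

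RefSeq promoter windows on GRCm38.p6 were at hand for 8 of the 10 members. Upstream bases of the 4 called members are shown, since they moved in opposite directions within 1 gene cluster. Each is given 5′ to 3′ on the gene's own strand and ends just before the outermost annotated start, and for S100a1 it is the whole stretch between its start and that of S100a13. Capitals mark matches, on either strand, to the AP-1 motif TGANTCA, the C/EBP motif TTGCNNAA, and the GC box GGGCGG. The NF-kappaB motif, a TATA box (TATAAA) and the oestrogen response element were searched as well and had no match in these 4 windows.
S100a11 (chr3:93520246-93520487, plus strand): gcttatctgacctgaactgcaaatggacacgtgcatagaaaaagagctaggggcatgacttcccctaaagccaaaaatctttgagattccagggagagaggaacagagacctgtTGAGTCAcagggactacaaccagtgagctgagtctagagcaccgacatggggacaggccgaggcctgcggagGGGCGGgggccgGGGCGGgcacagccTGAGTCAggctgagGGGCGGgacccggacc
S100a6 (chr3:90612644-90612881, plus strand): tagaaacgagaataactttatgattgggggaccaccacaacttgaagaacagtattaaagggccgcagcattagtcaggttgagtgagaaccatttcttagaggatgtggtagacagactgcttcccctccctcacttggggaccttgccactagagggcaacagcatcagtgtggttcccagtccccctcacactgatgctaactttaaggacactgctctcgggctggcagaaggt
S100a9 (chr3:90695722-90695971, minus strand): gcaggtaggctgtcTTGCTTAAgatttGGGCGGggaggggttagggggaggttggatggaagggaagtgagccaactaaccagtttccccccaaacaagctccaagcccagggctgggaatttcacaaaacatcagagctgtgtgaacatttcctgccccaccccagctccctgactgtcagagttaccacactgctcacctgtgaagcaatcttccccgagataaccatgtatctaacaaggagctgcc
S100a1 (chr3:90514393-90514434, minus strand): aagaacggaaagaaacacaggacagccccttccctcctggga

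The S100a11 window held 2 AP-1 matches, at 136 to 130 and at 38 to 32 bases before the RefSeq start, and 3 GC boxes. An AP-1 match was found in 6.75% of all 32851 promoter windows of 250 bases, and 0.338% held 2 or more, a count made after the S100a11 window was seen. Among the members S100a16 also had one, in 1 of its 2 windows. This motif reads the same on both strands and was counted once per place, and no match in the windows shown overlaps another. The S100a9 window held a C/EBP match at 236 to 229 bases before the start, a motif found in 9.56% of windows, and 1 GC box, found in 32.7%. The S100a6 and S100a1 windows held no match to any motif searched. Of all windows 5.00% held the NF-kappaB motif, 12.4% a TATA box and 0.0639% the oestrogen response element. These matches describe the letters only, and no binding was measured.

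The genes whose pattern over the 4 libraries was most like that of S100a11, by Euclidean distance between centred log2 values, were Fbn1 (distance 0.038), Zdhhc15 (0.046) and Tmem117 (0.086). Fbn1, the fibrillin of elastic microfibrils and a member of the fibroblast list, went from 19.1 and 18.1 CPM to 30.3 and 37.2 CPM, a log2 fold change of 0.85 (limma adjusted p = 0.000531). For S100a9 the nearest were the pseudogene Gm28438 (0.367), 2200002J24Rik (0.385) and the transcription factor gene Dmbx1 (0.421). Likeness over 4 libraries is a description of these mice.

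The libraries held the markers of corpus glands. Parietal genes summed to 12872 to 14084 CPM in vehicle and 1845 to 2326 CPM in HDT, and chief cell genes to 141924 to 174340 and 29602 to 40274 CPM. The counts that follow are to be read beside the shares of all tested genes, 18.4% higher and 19.3% lower. At the deposited scaling these shares were 62.8% and 5.46%. All 7 pit and neck cell genes were lower, while 4 were lower with either vehicle mouse left out and 3 at the deposited scaling. Of 9 glandular epithelium genes 2 were higher, 4 without HDT replicate 1 and 8 at the deposited scaling. Of 7 endothelial genes 3 were lower, while 1 was lower without HDT replicate 2, 2 were higher and 2 lower without vehicle replicate 2, and 4 were higher and 0 lower at the deposited scaling. Of 2 tested lymphoid genes 1 was lower, a call lost in 12 of 15 alternatives, with each of the 4 mice left out among them. Of 8 smooth muscle genes 0 were called by limma or edgeR and 1 by DESeq2, and 1 had an unadjusted p under 0.05. Without vehicle replicate 2 limma called 1 smooth muscle gene lower. Of 7 glial and neuronal genes 1 was higher, against 0 higher and 2 lower without HDT replicate 2 and 1 lower without vehicle replicate 2. Of 5 tested adipocyte genes 2 were lower, and 1 with either vehicle mouse left out. Depth was 41536686 to 42674985 recovered reads per library.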

How the data were processed

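RNA-seq of the stomach corpus was analysed in 2 vehicle and 2 HDT mice. The submitters' processing notes name edgeR, featureCounts of Subread 2.0.0, the aligner STAR 2.7.1a and the builds GRCm38 and mm10. Not given in the sources used here are step order, annotation, strand setting and normalization method. The values the authors deposited are a normalized count signal: each is a whole number of reads times 1 factor per library (1.113 to 1.138), and division gave whole reads, within 0.01, for 100% of values above 0.

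Genes were kept by filterByExpr on the recovered reads. Deposited values were divided by TMM-scaled library sizes (TMM factors 0.848, 0.818, 1.22 and 1.18) and tested as log2(value + 1) with limma 3.58.1 (trend, robust, two-sided, Benjamini-Hochberg over 18285 genes). The pseudocount equals 0.89 reads and understates changes of low genes. Nothing says that same-numbered mice are paired. The p-values measure the spread between 2 mice per group, which was moderated towards all genes. Alternatives used DESeq2 1.42.0, edgeR 4.0.16 and other scalings, filters, pseudocounts and mice. The test was tested on simulated data for this comparison (17961 genes, 200 changed): 5.21% of unchanged genes had an unadjusted p under 0.05, 104 of 105 genes changed 2-fold and 95 of 95 changed 4-fold were called, and 11.2% of calls fell on unchanged genes, above the nominal share. In the simulation the changed genes were drawn only from the more abundant ones, so it does not cover scarce genes or changes under 2-fold. Far fewer genes were changed there than were called in these mice, so its share of false calls need not hold here. Positions come from GENCODE M21.

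Members and gene lists were chosen with earlier results of these data known, and ratio pairs after values were seen. Other genes were named by rule: the most changed called gene of each pathway list in each direction, 7 textbook partners and the 3 nearest patterns of 2 members. S100a3, S100b, S100a2, Fgf1, Il1a and the neutrophil genes were named after their values were seen.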

Additional observations from a re-analysis of the deposited data

How the results depend on the processing

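The counts of called members were 2 higher and 2 lower. At the deposited scaling they were 4 and 1, and with the filter of 1 CPM, which tests fewer genes, 1 was lower. Leaving out 1 mouse gave 2 higher members each time and 2 to 3 lower ones. With 1 mouse left in a group, that mouse is assumed to vary like the pair. Over all genes 3369 were higher and 3520 lower. At the deposited scaling 11483 were higher and 998 lower, so 92% of calls were rises against 48.9%, and with the 20 most abundant genes left out of the library size 4776 were higher and 2490 lower, with the median over all genes at 0.11. Leaving out 1 mouse gave 2543 to 2749 higher and 2773 to 3041 lower. With the replicate block 2359 genes were higher and 2623 lower, and 2 members were higher and 2 lower. The deviations of same-numbered mice correlated at −0.142, and the numbers are not known to pair the mice.

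Estimates of uncalled or modest genes turned sign as follows. A change of scaling moves all genes together. The median over all tested genes was 0.53 at the deposited scaling, 0.11 with the 20 most abundant genes left out and 0.033 with upper-quartile scaling. The cause of turns under the other settings was not tested. At the deposited scaling S100a10 was at 0.073, S100a4 at 0.43, S100a13 at 0.42, S100a14 at 0.32, S100a16 at 0.53, Sprr2a1 at 0.13, Anxa6 at 0.43, Cacybp at 0.21, Ahnak at 0.50 and S100b at 0.47. With the 20 most abundant genes left out S100a4 was at 0.022, S100a13 at 0.00082, S100a16 at 0.11, Anxa6 at 0.012, Ahnak at 0.081 and S100b at 0.059. S100a16 was at 0.033 with upper-quartile scaling, 0.012 with no filter, 0.0021 with edgeR and 0.0015 with DESeq2. Over the mice left out, S100a4 ranged from −0.58 to 0.42, S100a13 from −0.26 to 0.053, S100a16 from −0.13 to 0.14, Ahnak from −0.17 to 0.12, Tlr4 from −0.030 to 0.14, S100b from −0.22 to 0.099 and Gm42674 from −0.43 to 0.48. Depth limits S100a8 and S100a9, at 2 to 49 reads per library.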
